A study of Mus musculus with 6 samples.

Results

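Nuclear genes for the subunits of respiratory complexes III, IV and V were followed, together with the 2 genes of cytochrome c and cytochrome c1, in messenger RNA of mouse hearts. The members were the genes of the deposited table whose names start with Uqcr, Cox4, Cox5, Cox6, Cox7, Cox8 or Atp5, with Cycs and Cyc1 added. Names holding "-ps", which mark pseudogenes, were left out, and a mean of at least 1 FPKM (fragments scaled to transcript length and library size) over the 6 libraries was required. Of 48 genes with these name starts, 6 carried such a pseudogene name and 0 fell below the minimum. The set held 44 of the 26835 genes in the table and 44 of the 10329 genes at or above the minimum: 9 of complex III with Cyc1, 17 of complex IV, 17 of complex V and Cycs. The rule itself reads names and mean levels and no difference between groups. The set is one of names, so it includes Cox7a2l, a factor that joins complexes III and IV into supercomplexes, Atp5s, a factor related to the coupling of ATP synthase, and Cox6c2, a copy of Cox6c that GENCODE M21 lists as a processed pseudogene.

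The libraries fell into 3 groups of 2. The CFZ_EA group received carfilzomib at 8 mg/kg and electroacupuncture at the PC6 acupoint, the CFZ group received carfilzomib at 8 mg/kg, and the control group received 10% DMSO, with both solutions given into the peritoneum. Carfilzomib is a proteasome inhibitor used against multiple myeloma, and harm to the heart is one of its known side effects. All animals were C57BL/6 mice of 7 to 8 weeks and about 20 g, with no genetic change given, and every library carries the same list of treatment days as its time. Whether the pair of libraries in a group stands for different mice is not in the labels. A p-value here therefore speaks only of how far these libraries differ, and that spread may be technical.

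Complex III passes electrons from ubiquinol to cytochrome c, and complex IV, cytochrome c oxidase, passes them on to oxygen. Both pump protons across the inner mitochondrial membrane, and complex V, ATP synthase, lets the protons return through a ring of c subunits and makes ATP. The heart works almost entirely on ATP made this way, and its muscle cells use heart and skeletal muscle forms of several complex IV subunits in place of the forms found in most other tissues. A few subunits of these complexes are made from mitochondrial DNA, and all others come from the nucleus and are imported.

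Estimated counts totalled 50013990 to 75742448 per library, and the 44 genes took 4.38% and 4.07% of them in CFZ_EA, 4.59% and 4.59% in CFZ and 4.26% and 4.01% in control libraries. Control replicate 2 stood apart from the other libraries on the first principal component of all tested genes, at 43.5 against -17.6 to -0.78. It also had the smallest total and the lowest share of mitochondrially encoded counts, 14.8%, against up to 21.3% in CFZ_EA replicate 2. The medians of the members are given with and without it. All 9 heart muscle markers checked were present in every library. They are called ventricular markers below, but not all of them are confined to the ventricle. Their summed level was 26399 and 24130 FPKM in CFZ_EA, 26417 and 27406 FPKM in CFZ and 24001 and 22682 FPKM in control libraries. In bulk tissue, fewer cells of a type and less RNA per cell cannot be told apart.

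Most of the subunit genes were abundant in the heart. Their mean levels over the 6 libraries ran from 1.73 FPKM (Cox6b2) to 3112 FPKM (Cox6a2), 39 of the 44 exceeded 100 FPKM and 7 exceeded 1000 FPKM. Cox6a2, the heart and skeletal muscle form of subunit 6A of complex IV, had 3172 and 2930.1 FPKM in CFZ_EA, 3222 and 3489 FPKM in CFZ and 2979.8 and 2881 FPKM in control libraries. Every other member was lower in every library. Atp5a1 and Atp5b, which encode the alpha and beta subunits of the catalytic head of ATP synthase, came next in mean level. Atp5a1 had 1539.7 and 1344 FPKM in CFZ_EA, 1653 and 1463 FPKM in CFZ and 1381 and 1321 FPKM in control libraries. Atp5b had 1469 and 1259.8 FPKM in CFZ_EA, 1511 and 1394 FPKM in CFZ and 1313 and 1272 FPKM in control libraries. In both genes CFZ replicate 1 was the highest library and CFZ replicate 2 lay above both control libraries. The 2 CFZ_EA libraries spanned a wider range than the control libraries did.

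**Figure D1:**
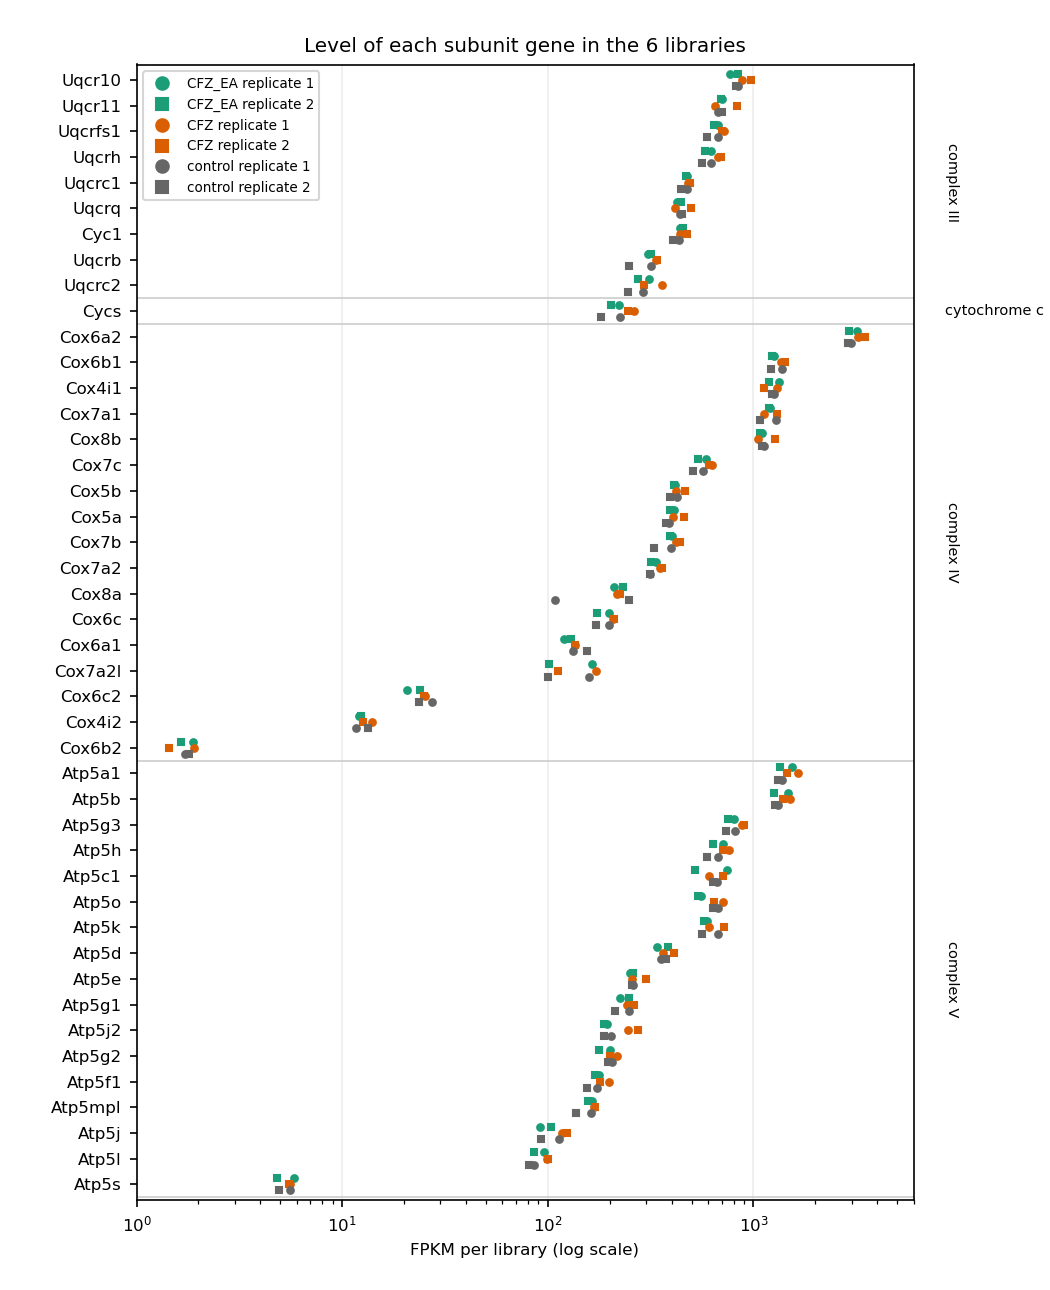
FPKM of each of the 44 genes (rows, grouped by complex and sorted by mean level) in each library, on a log axis, with colour for the group and symbol for the replicate. The 6 points of most genes sit close together, and the levels run from about 1.73 FPKM for Cox6b2 to 3112 FPKM for Cox6a2.

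The members varied less between libraries than genes in general, but the comparison was not matched for expression level. The median coefficient of variation over the 6 libraries, a description that ignores the groups, was 8.03% for the 44 members and 13.9% for all tested genes, and 41 of the 44 were under 15%. The exceptions were Cox7a2l at 24.9%, Cox8a at 24.3% and Atp5j2 at 16.6%.

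Complex III genes held the narrowest range of levels, from a mean of 295 FPKM for Uqcrc2 to 855 FPKM for Uqcr10. Uqcrc1 and Uqcrc2 encode the large core proteins on the matrix side. Uqcrc1 had 477 and 469 FPKM in CFZ_EA, 478 and 492 FPKM in CFZ and 474 and 444 FPKM in control libraries. Uqcrc2 had 309.7 and 274 FPKM in CFZ_EA, 359 and 294 FPKM in CFZ and 289 and 245 FPKM in control libraries. Both genes were lowest in control replicate 2, but the 2 core genes were highest in different CFZ libraries. Uqcrfs1 encodes the Rieske iron-sulfur protein, and its level was 672 and 640.1 FPKM in CFZ_EA, 723 and 701 FPKM in CFZ and 675 and 595 FPKM in control libraries. Cyc1, the cytochrome c1 that hands electrons to cytochrome c, had 438 and 454 FPKM in CFZ_EA, 441 and 478 FPKM in CFZ and 432 and 408 FPKM in control libraries. Its lowest library was control replicate 2 and its highest CFZ replicate 2, and both CFZ_EA libraries lay above both control libraries.

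Of the small complex III subunits, Uqcrb had 309 and 316 FPKM in CFZ_EA, 336 and 340.03 FPKM in CFZ and 318 and 247 FPKM in control libraries, and the groups CFZ and control did not overlap. Uqcrh, the hinge protein next to cytochrome c1, had 619 and 580.2 FPKM in CFZ_EA, 676 and 692 FPKM in CFZ and 619 and 563 FPKM in control libraries. Uqcr10 had 768 and 843 FPKM in CFZ_EA, 875 and 978 FPKM in CFZ and 844 and 822 FPKM in control libraries, with CFZ replicate 2 on top. In Uqcrq and Uqcr11, CFZ replicate 1 was the lowest of the 6 libraries and CFZ replicate 2 the highest, so their CFZ and control libraries overlapped.

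Cycs encodes the soluble cytochrome c that carries electrons from complex III to complex IV and triggers cell death when it leaves mitochondria. Cycs had 222 and 203 FPKM in CFZ_EA, 262 and 245 FPKM in CFZ and 224 and 181 FPKM in control libraries. Both CFZ libraries were above the other 4, and control replicate 2 was the lowest.

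Complex IV genes were spread most widely in level, and several of its subunits have a pair of genes used in different tissues. In these hearts the striated muscle forms led in 3 pairs. Cox6a2 made up 94.9% to 96.4% of the summed FPKM of Cox6a2 and Cox6a1 across the 6 libraries. Cox7a1 made up 78.2% and 78.9% of the sum with Cox7a2 in CFZ_EA, 76.3% and 78.4% in CFZ and 80.3% and 77.5% in control libraries. Cox8b made up 84.0% and 82.3% of the sum with Cox8a in CFZ_EA, 82.9% and 85.1% in CFZ and 91.3% and 81.6% in control libraries. The 3 groups overlapped in the Cox7a1 and Cox8b shares. The Cox6a2 share was 96.4% and 95.8% in CFZ_EA and 96.0% and 96.2% in CFZ, against 95.7% and 94.9% in control libraries, so the nearest libraries of different groups were at 95.8% and 95.7%.

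The lung form Cox4i2 and the testis form Cox6b2 were near the low end. Cox4i2 gave 0.907% to 1.11% of the sum with Cox4i1, and Cox6b2 gave 0.101% to 0.150% of the sum with Cox6b1, with overlapping groups in both. Cox4i1, which most tissues use, had 1324 and 1190.2 FPKM in CFZ_EA, 1303 and 1124 FPKM in CFZ and 1257 and 1231 FPKM in control libraries. Cox6b1 had 1254 and 1229 FPKM in CFZ_EA, 1355 and 1427 FPKM in CFZ and 1377 and 1222 FPKM in control libraries. Cox4i1 was lowest in CFZ replicate 2, the library in which most other members were highest.

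**Figure D2:**
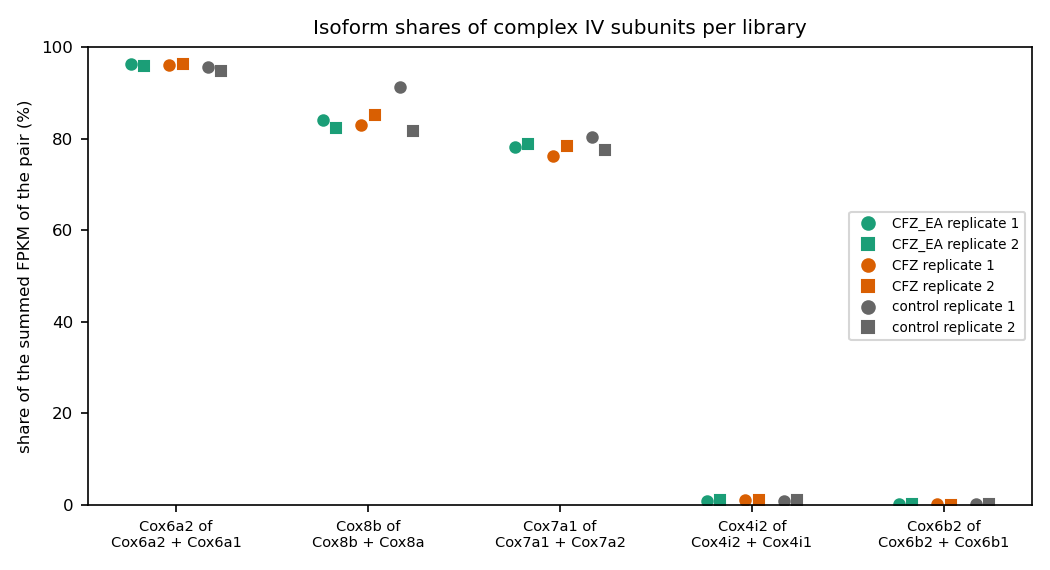
Share of the first-named gene in the summed FPKM of each complex IV isoform pair (y axis, percent), for the 6 libraries coloured by group. The muscle forms Cox6a2, Cox8b and Cox7a1 hold 76.3% to 96.4%, and the 1 point that stands off is the Cox8b share of 91.3% in control replicate 1.

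The coding sequences of Cox8b and Cox8a show how far apart the genes of a pair are. They are printed here 5′ to 3′ from the GENCODE M21 annotation of GRCm38, with capitals for the bases that are identical between them in a global alignment.
Cox8b: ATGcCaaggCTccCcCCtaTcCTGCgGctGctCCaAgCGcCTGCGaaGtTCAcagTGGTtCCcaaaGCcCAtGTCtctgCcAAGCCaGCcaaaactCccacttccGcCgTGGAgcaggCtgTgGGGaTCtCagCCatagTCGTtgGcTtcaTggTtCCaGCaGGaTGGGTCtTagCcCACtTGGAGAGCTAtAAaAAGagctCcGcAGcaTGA
Cox8a: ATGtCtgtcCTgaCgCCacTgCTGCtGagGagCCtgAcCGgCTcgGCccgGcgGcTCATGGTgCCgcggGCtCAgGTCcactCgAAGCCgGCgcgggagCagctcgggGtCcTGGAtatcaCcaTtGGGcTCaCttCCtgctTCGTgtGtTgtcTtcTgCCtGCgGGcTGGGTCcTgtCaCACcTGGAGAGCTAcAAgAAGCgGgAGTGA
Cox8b lies at chr7:140898945-140900446 on the minus strand and Cox8a at chr19:7215153-7217616 on the minus strand. Of 204 aligned bases 115 were identical (56.4%), and the longest run they share is 10 bases. The other 4 pairs were 62.4% to 69.2% identical with runs of at most 14 bases. Cox6c2 was much closer to another member: it matches Cox6c at 224 of 231 bases, with a shared run of 145 bases. Its level of 20.6 to 27.2 FPKM is therefore uncertain and may hold reads of Cox6c, whose mean was 193 FPKM. Pseudogenes left out by name also match members closely. Atp5l2-ps matches Atp5l at 310 of 312 bases and Atp5k-ps2 matches Atp5k at 202 of 210. The levels of Atp5l and Atp5k may thus share reads with these pseudogenes.

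Cox8a itself differed most between 2 libraries of the same group. Cox8a had 210.4 and 231 FPKM in CFZ_EA, 216 and 224 FPKM in CFZ and 108 and 249 FPKM in control libraries. The single low value was control replicate 1, and the other 5 libraries ran from 210 to 249 FPKM. Cox8b was not shifted in that library, with 1104 and 1071 FPKM in CFZ_EA, 1051 and 1273 FPKM in CFZ and 1130.4 and 1105 FPKM in control libraries. The Cox8b share of 91.3% in control replicate 1 therefore came with a low Cox8a and an ordinary Cox8b value.

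Cox7a2l showed another pattern within groups. Cox7a2l had 164 and 101 FPKM in CFZ_EA, 171 and 112 FPKM in CFZ and 159 and 99.9 FPKM in control libraries. Replicate 1 exceeded replicate 2 by more than 1.5 times in each of the 3 groups. That held for 1 of the 44 members and for 21 of the 10329 tested genes, and the opposite order held for 25 tested genes. C57BL/6 mice are known to carry a short form of this protein. The groups overlapped, and the labels do not say what the replicate numbers share.

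The remaining complex IV genes were steadier. Cox5a, which binds regulatory ligands on the matrix side, had 413 and 391 FPKM in CFZ_EA, 407 and 460.4 FPKM in CFZ and 387 and 376 FPKM in control libraries. Cox5b, the zinc-binding subunit, had 413 and 410.3 FPKM in CFZ_EA, 420.3 and 466 FPKM in CFZ and 423 and 394 FPKM in control libraries. In both, CFZ replicate 2 was the highest library and control replicate 2 the lowest. Cox6a1 went the other way in control replicate 2, with 119 and 129.6 FPKM in CFZ_EA, 135 and 136 FPKM in CFZ and 133 and 156 FPKM in control libraries. Cox7c had 585 and 538 FPKM in CFZ_EA, 626 and 605 FPKM in CFZ and 568 and 508 FPKM in control libraries, and Cox7b had 400.4 and 395 FPKM in CFZ_EA, 419 and 439 FPKM in CFZ and 398 and 329.9 FPKM in control libraries. Both CFZ libraries exceeded the other 4 in Cox7c and in Cox7b.

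In complex V, the mean level ran from 5.37 FPKM for Atp5s and 91.15 FPKM for Atp5l, subunit g at the membrane, to 1450.5 FPKM for Atp5a1. Atp5c1, the rotating gamma shaft, had 741 and 521 FPKM in CFZ_EA, 610.3 and 711 FPKM in CFZ and 667 and 638 FPKM in control libraries. Its highest and its lowest library were both CFZ_EA. Atp5o encodes the protein at the top of the peripheral stalk that gives ATP synthase its sensitivity to oligomycin. Atp5o had 559 and 538 FPKM in CFZ_EA, 712 and 641 FPKM in CFZ and 673 and 636 FPKM in control libraries. Both CFZ_EA libraries lay below the other 4. The 6 values of Atp5j, coupling factor 6 of the same stalk, were 92.05 and 104 FPKM in CFZ_EA, 117 and 124 FPKM in CFZ and 114 and 92.5 FPKM in control libraries. Atp5j overlaps Gabpa on the opposite strand by 701 bases, and Gabpa averaged 2.22 FPKM; whether counting used strand is not given in the sources used here. Atp5o and Cox4i1 overlap other protein-coding gene models on their own strand, by 1769 and 5986 bases. Neither model is among the deposited genes, and the counts of Atp5o and Cox4i1 may share reads with them.

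Subunit c, the ring that protons turn, is made from 3 genes that differ in the import sequence and are known to give the same mature protein. Atp5g3 carried 63.9% to 65.98% of their summed FPKM across the libraries, Atp5g1 18.1% to 21.0% and Atp5g2 14.8% to 17.2%. Atp5g3 had 806 and 755 FPKM in CFZ_EA, 877 and 901 FPKM in CFZ and 812 and 731 FPKM in control libraries. Atp5g1 had 225 and 248 FPKM in CFZ_EA, 242 and 263 FPKM in CFZ and 249 and 213 FPKM in control libraries. Atp5g2 had 201 and 177 FPKM in CFZ_EA, 218 and 202 FPKM in CFZ and 205 and 196 FPKM in control libraries. Both CFZ libraries were above the other 4 only in Atp5g3 among the 3 genes, while the order of the genes was the same in all 6 libraries.

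The last 231 coding bases of the 3 genes, stop codon included, show where they diverge. They are given 5′ to 3′ from GENCODE M21 on GRCm38, with capitals for the bases that all 3 share.
Atp5g1: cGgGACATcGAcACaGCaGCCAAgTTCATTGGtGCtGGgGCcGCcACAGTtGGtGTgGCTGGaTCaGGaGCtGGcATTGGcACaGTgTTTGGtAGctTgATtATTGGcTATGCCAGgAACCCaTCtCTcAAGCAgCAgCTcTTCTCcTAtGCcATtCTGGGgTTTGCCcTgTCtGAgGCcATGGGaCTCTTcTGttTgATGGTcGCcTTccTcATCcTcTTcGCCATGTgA
Atp5g2: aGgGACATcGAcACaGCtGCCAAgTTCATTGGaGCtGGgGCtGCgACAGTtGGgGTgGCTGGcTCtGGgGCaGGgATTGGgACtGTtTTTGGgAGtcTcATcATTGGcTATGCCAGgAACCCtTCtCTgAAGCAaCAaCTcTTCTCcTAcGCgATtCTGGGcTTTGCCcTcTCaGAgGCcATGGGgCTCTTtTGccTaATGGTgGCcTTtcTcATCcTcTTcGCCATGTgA
Atp5g3: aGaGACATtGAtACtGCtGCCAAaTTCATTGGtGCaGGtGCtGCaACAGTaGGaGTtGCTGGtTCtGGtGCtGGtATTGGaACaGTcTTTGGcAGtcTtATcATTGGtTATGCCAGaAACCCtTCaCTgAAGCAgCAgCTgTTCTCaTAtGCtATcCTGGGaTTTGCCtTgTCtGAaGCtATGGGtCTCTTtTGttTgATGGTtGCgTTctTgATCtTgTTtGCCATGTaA
The genes lie at chr11:96068852-96075670, chr15:102662864-102672352 and chr2:73908447-73911326, all on the minus strand. Of the 231 bases 171 (74.0%) are the same in all 3. Of the 60 that are not, 53 fall at the third base of a codon, 1 at the second and 6 at the first. The coding bases before this stretch are 180, 210 and 195 long in Atp5g1, Atp5g2 and Atp5g3, and the pairs were 59.4% to 64.0% identical there. The longest run shared by any 2 of the 3 coding sequences is 21 bases.

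The first comparison asked whether carfilzomib alone changed these genes. Most subunit genes averaged slightly higher in CFZ than in control libraries, but none passed the test. The median log2 fold change of the 44 members was 0.20, against -0.0034 for all tested genes, and 42 of 44 were above 0. By complex, the median was 0.21 for complex III (9 of 9 above 0), 0.16 for complex IV (15 of 17) and 0.22 for complex V (17 of 17). At an adjusted p under 0.05 over all tested genes, edgeR's quasi-likelihood test called 0 of the 44 members and 3 of all tested genes (0.0290%), DESeq2 called 0 members and 138 genes (1.34%), and limma called 0 members and 2 genes (0.0194%). At an unadjusted edgeR p under 0.05, 1 member was higher in CFZ (188 of all tested genes, 1.82%) and 0 were lower (609 genes, 5.90%).

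Read by libraries, both CFZ values exceeded both control values in FPKM for 23 of 44 members, where 12.5% of all tested genes did so, and both were lower for 0 members, where 20.8% of all tested genes were. The 23 comprised 7 genes of complex III, 6 of complex IV, 9 of complex V and Cycs. On TMM-scaled counts both CFZ values were higher for 21 members, where 18.4% of all tested genes were. The median was 0.076 without control replicate 2, with 35 of 44 above 0, and 0.13 without CFZ replicate 2, with 35 above 0. Leaving out control replicate 1 gave 0.31, and leaving out CFZ replicate 1 gave 0.27.

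Atp5j2, subunit f of the membrane part of ATP synthase, had the highest fold change. It lies at chr5:145183698-145192062 on the minus strand. Atp5j2 averaged 259 ± 21.1 FPKM in CFZ and 195 ± 10.6 FPKM in control libraries (SD, n = 2 each), from values of 244 and 274 FPKM in CFZ libraries, against 202 and 187 FPKM in control libraries. Both CFZ libraries lay above every other library. Its log2 fold change was 0.47 ± 0.15 (SE), with a 95% interval of 0.09 to 0.84, an unadjusted p of 0.0224 and an adjusted p of 0.608 in edgeR's quasi-likelihood test. It is the 1 member counted above.

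Cycs averaged 254 ± 11.9 FPKM in CFZ and 203 ± 30.2 FPKM in control libraries (SD, n = 2 each). Its log2 fold change was 0.37 ± 0.17 with an adjusted p of 0.66 from edgeR. Cox8a had a log2 fold change of 0.38 ± 0.33 that rested on control replicate 1 and was -0.053 without it. Of the 2 most abundant complex V genes, Atp5a1 had 0.26 ± 0.17 and Atp5b 0.22 ± 0.18. Cyc1 had 0.18 ± 0.15.

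Within the isoform pairs the CFZ to control log2 fold changes were 0.25 ± 0.16 for Cox6a2 beside -0.03 ± 0.12 for Cox6a1, and 0.09 ± 0.18 for Cox7a1 beside 0.23 ± 0.12 for Cox7a2. They were 0.12 ± 0.16 for Cox8b, 0.15 ± 0.15 for Cox4i2 beside 0.01 ± 0.15 for Cox4i1, and -0.03 ± 0.27 for Cox6b2 beside 0.15 ± 0.15 for Cox6b1. The subunit c genes had 0.26 ± 0.16 (Atp5g3), 0.18 ± 0.18 (Atp5g1) and 0.11 ± 0.13 (Atp5g2). The lowest 3 of the 44 were Cox6b2, Cox6a1 and Cox4i1, all within their standard errors of 0, and the sign of each turned under at least 1 other setting. Adjusted p-values of the 44 ran from 0.608 to 0.988 in edgeR.

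The 95% intervals show what 2 libraries a group could resolve. Their median half-width was 0.38 on the log2 scale in each comparison. Intervals of 43 of the 44 members included 0 in CFZ against control, and the bounds reached from -0.69 to 1.18. Changes of the size of the median were thus not detectable for a single gene here.

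**Figure D3:**
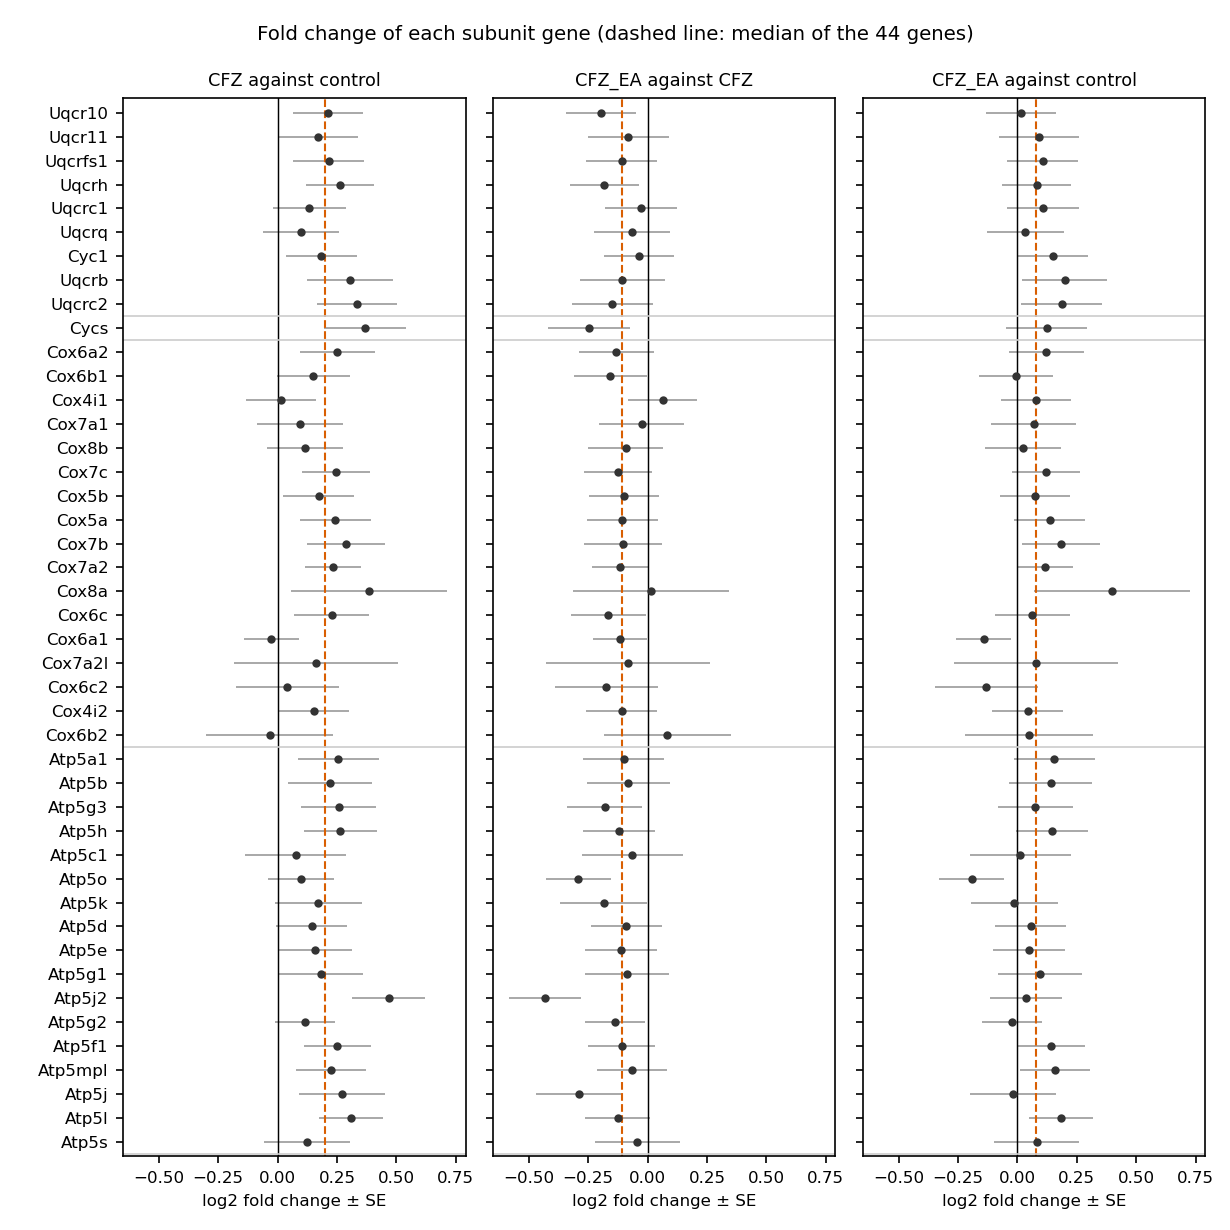
Log2 fold change of each of the 44 genes (points) with its standard error (bars) from edgeR, for CFZ against control, CFZ_EA against CFZ and CFZ_EA against control. The dashed line marks the median of the 44, at 0.20, -0.11 and 0.080, and Atp5j2 lies farthest out in the first and the second panel.

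The second comparison asked what electroacupuncture changed beside carfilzomib. Most subunit genes averaged slightly lower in CFZ_EA than in CFZ libraries, and none passed the test. The median log2 fold change was -0.11, against -0.0084 for all tested genes, and 41 of 44 were below 0. It was -0.11 in each of the 3 complexes, with 9 of 9, 14 of 17 and 17 of 17 below 0. edgeR called 0 members and 2 of all tested genes (0.0194%), DESeq2 0 members and 55 genes (0.532%), and limma 0 members and 2 genes (0.0194%). At an unadjusted edgeR p under 0.05, 1 member was lower (111 genes, 1.07%) and 0 were higher (208 genes, 2.01%).

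Both CFZ_EA values were below both CFZ values in FPKM for 26 of 44 members, where 17.7% of all tested genes were, and above for 0 members, where 15.1% were. On TMM-scaled counts both CFZ_EA values were lower for 19 members, where 16.7% of all tested genes were. The median was -0.053 without CFZ replicate 2, with 16 of 44 members above 0 in place of 3, and -0.18 without CFZ replicate 1. This comparison and the one of CFZ with control use the same CFZ libraries, so their values are given side by side and not compared.

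The member lower at an unadjusted p was again Atp5j2, with 194 and 189 FPKM in CFZ_EA libraries, against 244 and 274 FPKM in CFZ libraries. Its log2 fold change in CFZ_EA against CFZ was -0.43 ± 0.15, with a 95% interval of -0.81 to -0.06, an unadjusted p of 0.0303 and an adjusted p of 0.9997 in edgeR. In CFZ against control it was 0.47 ± 0.15, from the same CFZ libraries. Atp5o averaged 548 ± 14.7 FPKM in CFZ_EA and 677 ± 50.6 FPKM in CFZ libraries (SD, n = 2 each), a log2 fold change of -0.29 ± 0.14. Atp5j, the other stalk gene, had -0.29 ± 0.18, and its CFZ_EA libraries were both below its CFZ libraries. Cycs had -0.25 ± 0.17. The highest 3 were Cox6b2 at 0.08 ± 0.27, Cox4i1 at 0.06 ± 0.15 and Cox8a at 0.01 ± 0.33, all within their standard errors of 0.

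**Figure D4:**
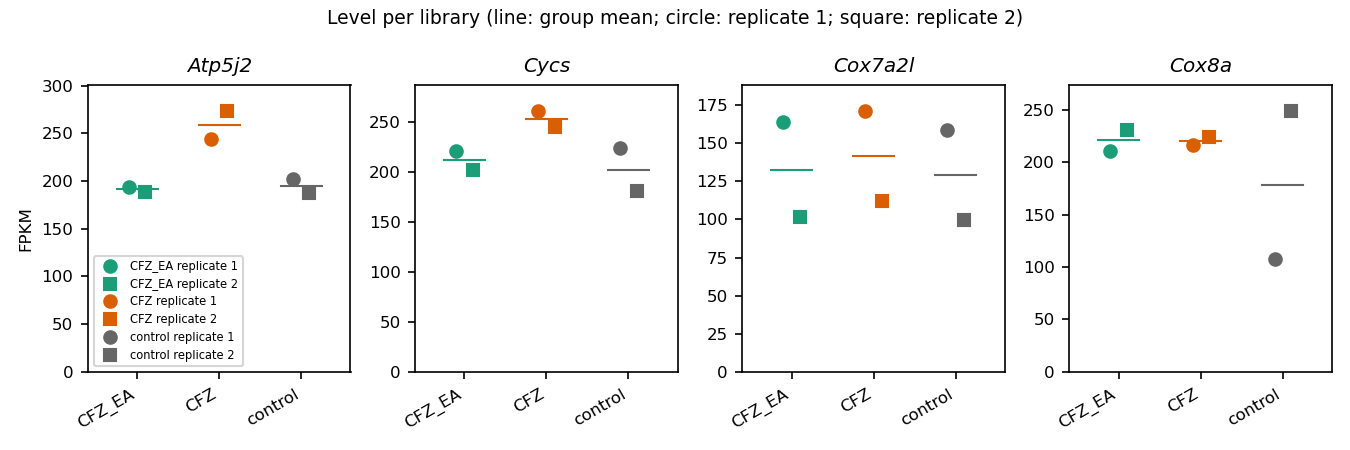
FPKM (y axis, from 0) of Atp5j2, Cycs, Cox7a2l and Cox8a in each library, by group, with a line at the group mean of 2 libraries. Both CFZ points lie above the other 4 in Atp5j2 and Cycs, replicate 1 lies above replicate 2 in every group in Cox7a2l, and 1 control library of Cox8a stands low at 108 FPKM.

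Between CFZ_EA and control libraries no subunit gene passed the test. The median log2 fold change of CFZ_EA against control was 0.080, against -0.0013 for all tested genes, with 37 members above 0 and 7 below. It was 0.016 with library totals alone as scaling, with 27 members above 0. The medians by complex were 0.11, 0.073 and 0.076 for complexes III, IV and V. edgeR called 0 members and 0 of all tested genes (0%), DESeq2 0 members and 51 genes (0.494%), and limma 0 members and 0 genes (0%). At an unadjusted edgeR p under 0.05, 0 members were higher (152 genes, 1.47%) and 0 were lower (378 genes, 3.66%). All 44 intervals included 0, with bounds from -0.76 to 1.20, and a p that misses the threshold does not show that the groups are alike.

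In FPKM, both CFZ_EA libraries exceeded both control libraries in 3 members (Cyc1, Cox5a and Cox7a2), where 10.5% of all tested genes did. They were below both in 3 (Atp5o, Cox6a1 and Cox8b), where 22.1% did. On TMM-scaled counts both were higher for 5 members and lower for 2, against 1714 and 1840 of the 10329 tested genes. Cox8b overlapped on that scale, with a log2 fold change of 0.02 ± 0.16. The highest log2 fold changes were 0.40 ± 0.33 for Cox8a, which was -0.034 without control replicate 1, 0.20 ± 0.18 for Uqcrb and 0.19 ± 0.17 for Uqcrc2. The lowest were -0.19 ± 0.14 for Atp5o, -0.14 ± 0.12 for Cox6a1 and -0.13 ± 0.22 for Cox6c2. Cycs had 0.12 ± 0.17. Without control replicate 2 the median of the 44 turned to -0.031, with 14 members above 0, and without control replicate 1 it was 0.23.

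A library-by-library view shows where these medians came from. The median TMM-scaled log2 level of the 44 genes, relative to each gene's mean over all libraries, was 0.017 and -0.018 in CFZ_EA, 0.049 and 0.19 in CFZ and 0.028 and -0.21 in control libraries. CFZ replicate 2 and control replicate 2 were the extremes in all 3 complexes, and the other 4 libraries lay between them within 0.1 of 0. In FPKM, CFZ replicate 2 held the highest value for 25 of 44 members and CFZ replicate 1 for 13, and control replicate 2 held the lowest for 26. The summed level of the 44 was 24029 and 22657 FPKM in CFZ_EA, 24914 and 25790 FPKM in CFZ and 23748 and 22268 FPKM in control libraries. On that scale both CFZ libraries were above the other 4, but CFZ replicate 1 was nearer to the highest of them than the 2 control libraries were to each other.

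Marker genes of several cardiac cell types also differed between these libraries. The 9 ventricular markers, listed with their sums above, had a median log2 fold change of 0.30 in CFZ against control and all 9 were above 0. Fibroblast markers (8 genes) summed to 804 and 804 FPKM in CFZ_EA, 616 and 534 FPKM in CFZ and 759 and 1566 FPKM in control libraries. Macrophage markers (7 genes) summed to 217 and 254 FPKM in CFZ_EA, 215 and 246 FPKM in CFZ and 287 and 839.8 FPKM in control libraries. Control replicate 2, in which the subunit genes were lowest, was the highest library for both. It was also the highest for the sum of smooth muscle and pericyte markers (6 genes), at 153 and 199.8 FPKM in CFZ_EA, 179 and 172 FPKM in CFZ and 175 and 322 FPKM in control libraries. Acta2 alone gave 184 FPKM of that sum in control replicate 2. Acta2, Tagln, Myh11 and Pdgfrb were highest in control replicate 2, whereas Rgs5 and Kcnj8 were not. Erythroid markers (5 genes) summed to 2466 and 3469.8 FPKM in CFZ_EA, 2654 and 3316 FPKM in CFZ and 4962 and 5666 FPKM in control libraries. Endothelial markers (7 genes) differed less, with sums of 162 and 174 FPKM in CFZ_EA, 195 and 186 FPKM in CFZ and 191 and 199.8 FPKM in control libraries. Their median log2 fold change in CFZ against control was 0.028.

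Atrial muscle markers (8 genes) summed to 977 and 5736 FPKM in CFZ_EA, 345 and 211 FPKM in CFZ and 2864 and 1624 FPKM in control libraries. Both CFZ libraries were lowest in this sum and highest in the summed subunit level. Epicardial and mesothelial markers (5 genes) summed to 4.13 and 10.5 FPKM in CFZ_EA, 3.62 and 3.46 FPKM in CFZ and 17.6 and 43.2 FPKM in control libraries. Their 4 tested genes had a median log2 fold change of -3.55 in CFZ against control, and DESeq2 called all 4, while edgeR called 0. No defining marker of these lists was at 0 in every library. The part of these cell types in the subunit values was not tested.

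Set against the sum of the ventricular markers, the subunit genes had another order. The summed FPKM of the 44 members divided by that of the 9 markers was 0.910 and 0.939 in CFZ_EA, 0.943 and 0.941 in CFZ and 0.989 and 0.982 in control libraries. Both control libraries were thus the highest here, whereas they were not in the summed level. The ratio averaged 0.942 ± 0.0015 in CFZ and 0.986 ± 0.0054 in control libraries (SD, n = 2 each). With 2 libraries against 2, the smallest p an exact two-sided permutation test can give is 0.333, so none was run. Complex IV gave 0.414 and 0.428 in CFZ_EA, 0.419 and 0.426 in CFZ and 0.448 and 0.448 in control libraries. Complex III gave 0.179 and 0.196 in CFZ_EA, 0.187 and 0.193 in CFZ and 0.198 and 0.197 in control libraries. Complex V gave 0.309 and 0.307 in CFZ_EA, 0.327 and 0.313 in CFZ and 0.333 and 0.329 in control libraries. Control libraries were above all 4 carfilzomib libraries in each complex. The markers themselves had log2 fold changes from 0.11 (Myh6) to 0.42 (Tnni3) in CFZ against control. The order of these ratios therefore depends on which markers are summed.

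**Figure D5:**
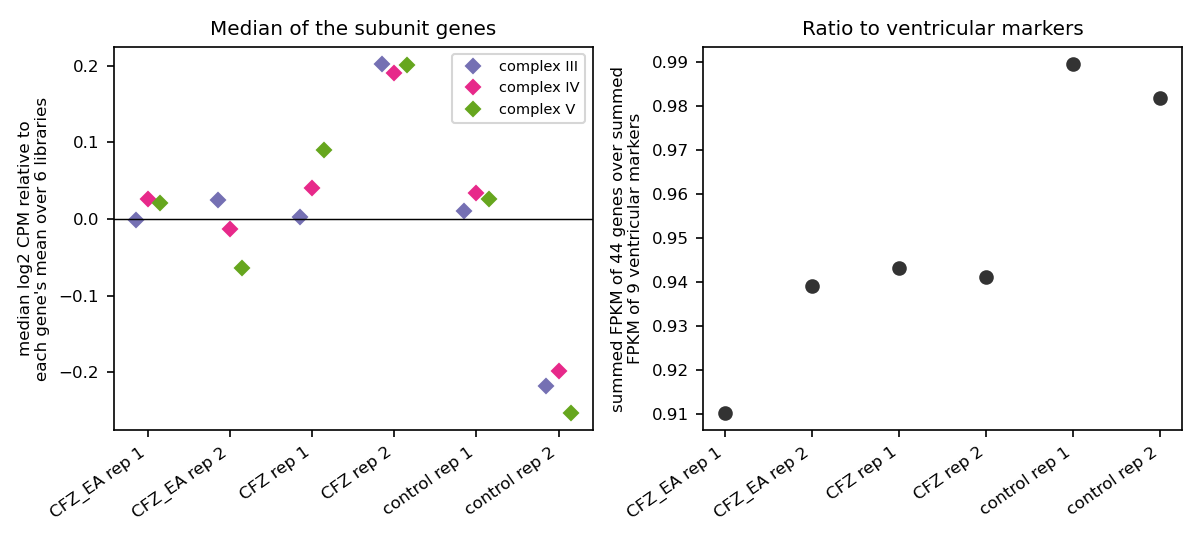
Left, median TMM-scaled log2 level of the genes of each complex in each library, relative to each gene's mean over the 6 libraries. Right, summed FPKM of the 44 genes over that of 9 ventricular markers, on an axis that does not start at 0. CFZ replicate 2 and control replicate 2 are the extremes on the left, and both control libraries are the highest on the right, at 0.989 and 0.982.

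The subunits of the same complexes that mitochondrial DNA encodes had a different order of libraries. For complex III the single such gene, mt-Cytb, had 2.601 and 3.68 times the summed FPKM of the 9 nuclear genes in CFZ_EA, 2.17 and 2.38 times in CFZ and 3.28 and 1.99 times in control libraries. For complex IV the ratio was 9.24 and 10.1 in CFZ_EA, 8.96 and 9.004 in CFZ and 9.69 and 7.51 in control libraries. For complex V it was 1.021 and 1.54 in CFZ_EA, 0.875 and 0.973 in CFZ and 1.39 and 0.771 in control libraries. The 2 control libraries enclosed both CFZ libraries in all 3 ratios. The 6 mitochondrially encoded genes had median log2 fold changes of -0.017 in CFZ against control, 0.27 in CFZ_EA against CFZ and 0.26 in CFZ_EA against control, with 0 called by edgeR.

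Other genes of the same pathway were read for comparison, from lists chosen by function. In CFZ against control, all 4 complex II genes were above 0 with a median of 0.28, and all 6 complex III assembly factors were above 0 with a median of 0.20. Complex IV assembly factors were above 0 in 18 of 23 with a median of 0.13. For complex V assembly and regulation, 5 of 5 tested genes were above 0 with a median of 0.20. All 5 supercomplex and associated factors that are not members (Higd1a, Higd2a, Ndufa4, Chchd2 and Chchd10) were above 0, with a median of 0.28. All 3 ADP, ATP and phosphate carriers (median 0.22) were above 0 too. Of 12 tested regulators of respiratory gene transcription, 10 were above 0 with a median of 0.15. edgeR called 0 genes in any of these lists. Uqcc1, an assembly factor of complex III, had 0.69 ± 0.25 with an adjusted p of 0.610, and Esrrb, an estrogen-related receptor, had 0.46 ± 0.17 with an adjusted p of 0.619. Ppargc1a, the coactivator PGC-1alpha, had -0.17 ± 0.29.

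In CFZ_EA against CFZ, all 4 complex II genes were below 0, with a median of -0.15. All 5 supercomplex and associated factors outside the set were below 0 too, with a median of -0.16. Complex III assembly factors were below 0 in 4 of 6, complex IV assembly factors in 14 of 23 and regulators in 6 of 12. In CFZ_EA against control, 19 of 23 complex IV assembly factors and 11 of 12 regulators were above 0, and edgeR called 0 genes of these lists in either comparison.

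The promoters of the subunit genes are known to carry sites for the nuclear respiratory factor NRF1 and for GABPA, an ETS factor. RefSeq windows of the 250 bases before the start (GRCm38.p6) were matched for 33 of the 44 members, in 36 windows. The NRF1 motif GCGCATGCG, searched on both strands, was in 5 windows (13.9%), against 1.45% of all 32851 windows and 1.93% of the 21262 windows of protein-coding genes. The 5 genes were Cycs, Atp5g2, Atp5k, Atp5l and Cox6a1. The ETS motif CCGGAAG was in 8 windows (22.2%), against 6.91% of all and 8.98% of protein-coding windows. The YY1 motif AAGATGGC was in 1 window (2.78%, against 1.56% of all), and the ERR motif AAGGTCA in 2 (5.56%, against 4.08%). A match says only that the letters are there.

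Windows of Cycs, Atp5l and Cox6a1 are shown because they hold the NRF1 letters and the genes differed in how CFZ and control libraries were ordered. They are at chr6:50566570-50566819, chr9:44920743-44920992 and chr5:115348959-115349208, all on the minus strand of GRCm38.p6, given 5′ to 3′ toward the start. Capitals mark matches to any of the 4 motifs on either strand.
Cycs: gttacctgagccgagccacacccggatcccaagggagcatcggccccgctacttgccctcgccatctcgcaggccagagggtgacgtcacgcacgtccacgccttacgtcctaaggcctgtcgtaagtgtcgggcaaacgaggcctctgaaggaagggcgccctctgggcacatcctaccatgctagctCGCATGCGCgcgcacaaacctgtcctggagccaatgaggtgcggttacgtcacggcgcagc
Atp5l: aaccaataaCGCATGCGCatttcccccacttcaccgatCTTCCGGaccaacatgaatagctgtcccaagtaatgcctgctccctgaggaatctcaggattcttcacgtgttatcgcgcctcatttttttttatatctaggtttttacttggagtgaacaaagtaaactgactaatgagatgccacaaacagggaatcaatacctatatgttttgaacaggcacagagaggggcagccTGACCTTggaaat
Cox6a1: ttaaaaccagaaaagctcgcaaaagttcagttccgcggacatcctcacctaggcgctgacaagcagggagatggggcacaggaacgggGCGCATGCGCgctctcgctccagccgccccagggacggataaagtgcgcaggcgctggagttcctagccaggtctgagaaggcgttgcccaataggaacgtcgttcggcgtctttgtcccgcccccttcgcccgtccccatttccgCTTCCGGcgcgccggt
Atp5l holds the NRF1, ETS and ERR letters, Cox6a1 the NRF1 letters on both strands at overlapping positions and the ETS letters, and Cycs the NRF1 letters alone. The RefSeq start of Cox6a1 lies inside the gene as the deposited table places it. Atp5l had 95.7 and 85.6 FPKM in CFZ_EA, 99.1 and 99.9 FPKM in CFZ and 85.8 and 80.9 FPKM in control libraries, and both CFZ libraries were above both control libraries, as in Cycs. In Cox6a1 the CFZ and control libraries overlapped. The 8 genes with the ETS letters were Atp5e, Atp5h, Atp5j, Atp5l, Cox6a1, Cox6b1, Uqcr11 and Uqcrh.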

How the data were processed

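Heart messenger RNA was sequenced in 6 libraries, 2 in each of 3 groups. Per the labels' protocols, messenger RNA was selected on oligo(dT) and strand was marked with dUTP. The tools listed in the submitters' processing notes are StringTie 1.3.4d, HISAT2 2.0.4 and cutadapt 1.9, and the build is GRCm38. Per the file headers, the authors deposited an FPKM value and a count for each gene and library. These deposited counts were treated as estimated counts and rounded. Multiples of 4 made up 42.2% to 43.3% of low counts (1 to 20), where even spacing gives 25%, so 1 read may add more than 1 count. The use of strand in counting is not given in the sources used here.

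Genes with a mean of at least 1 FPKM were tested with edgeR 4.0.16 (quasi-likelihood, TMM factors 0.955 to 1.08, group as the only term, all 6 libraries, R 4.3.3), with Benjamini-Hochberg adjustment over 10329 genes and a threshold of 0.05. DESeq2 1.42.0 and limma 3.58.1 on log2(FPKM + 1), another filter, other scalings, a replicate block and leaving out each library were alternatives. Named in full were isoform pairs, the 3 highest and 3 lowest members of each comparison, the 3 most abundant, Cycs and Cyc1; the values of other members were chosen by role. Cox8a, Cox7a2l and Atp5j2 were singled out for their spread, seen in the data. Sequences came from RefSeq and GENCODE M21 and were aligned with Biopython 1.88. Intervals and depth cover counting and library spread only. The members and gene lists were chosen with earlier results of these data known.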

Additional observations from a re-analysis of the deposited data

How the results depend on the processing

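No member was called under any of the settings run, edgeR, DESeq2, limma and each library left out included. The count of all genes called in CFZ against control was 3, and it was 138 with DESeq2, 0 with only the 2 compared groups and 0 to 332 over the fits that left out 1 library. In CFZ_EA against CFZ it was 2, 55 with DESeq2 and 0 to 4. In CFZ_EA against control it was 0, 51 with DESeq2 and 0 to 231. The median of the members ran from 0.076 to 0.31 in CFZ against control and from -0.031 to 0.23 in CFZ_EA against control over the fits without 1 library. Members above 0 ran from 3 to 16 in CFZ_EA against CFZ and from 14 to 41 in CFZ_EA against control. The sign turned in CFZ against control for Cox6b2 (0.016 with no filter, 0.014 with filterByExpr), Cox6a1 (0.025 and 0.023) and Cox4i1 (-0.044 with library totals, -0.040 with limma at either pseudocount). It also turned for Cox8a in CFZ_EA against CFZ (-0.0078 with no filter, -0.0067 with filterByExpr). With 1 library left out, values in CFZ against control ran from -0.053 to 1.02 for Cox8a, -0.19 to 0.10 for Cox6b2, -0.081 to 0.027 for Cox6a1, -0.068 to 0.10 for Cox4i1, -0.091 to 0.30 for Cox7a1 and -0.086 to 0.29 for Cox8b. In CFZ_EA against CFZ they ran from -0.071 to 0.105 for Cox8a and -0.051 to 0.24 for Cox6b2. In CFZ_EA against control they ran from -0.031 to 0.48 for Uqcrb, -0.034 to 1.03 for Cox8a, -0.29 to 0.058 for Cox6c2 and -0.082 to 0.37 for Cycs. The cause was not tested. Where 1 library was left, it was assumed to vary like the other groups.

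Libraries with the same replicate number did not deviate together across tested genes (correlations of 0.091, -0.025 and -0.059 for the 3 pairs of groups), and the labels do not say what the numbers share, so the libraries were treated as unpaired. Over the 44 members alone the correlations were 0.53, 0.37 and 0.22. With the replicate block the medians were 0.20, -0.11 and 0.083, and 2, 2 and 0 genes were called. With 2 libraries a group, the median 95% interval half-width of 0.38 was larger than every median of the members.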
